A study of Mus musculus with 11 samples.

Results

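A set of 10 genes of the smooth muscle contractile apparatus was followed across every library of a mouse stomach study: Acta2, Actg2, Myh11, Myl9, Mylk, Tagln, Cnn1, Lmod1, Synpo2 and Des. They were chosen by name for their known role in smooth muscle and not by a rule on their values, but with earlier results of these data known. They are 10 of the 34866 genes in the deposited table. All 10 passed the filter on low counts, which left 14889 genes to test. The study sequenced messenger RNA from the mucosa of the gastric corpus, the acid-secreting part of the stomach, in 11 samples. The control group is labelled WT and has 2 samples. The mutant groups carry the labels ATP4B-DTR, GIF-DTR and, as a double name, GIF/ATP4B-DTR, each with 3 samples. DTR stands for the diphtheria toxin receptor, and the lines were designed to remove parietal cells, chief cells or both. The labels describe the transgenes no further, and they give no toxin dose, no time after toxin, no age, no sex and no batch. They also do not say that each sample is a separate animal, so p-values measure the spread between these samples.

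Smooth muscle shortens when a rise in calcium activates myosin light chain kinase. The kinase phosphorylates the regulatory light chain of myosin, and the myosin then pulls on filaments of smooth muscle actin. In the stomach such cells form the external muscle coat, the thin muscularis mucosae under the glands, strands that rise between the glands, and the walls of vessels. A mucosal sample holds muscle of the inner layers and can carry deeper muscle, depending on where it was separated. In bulk RNA, fewer muscle cells and less RNA per muscle cell cannot be told apart.

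The table holds estimated counts that sum to between 20689262 and 27946423 per library. Levels below are CPM, the usual read counts scaled to a common library size, with edgeR's TMM library scaling. The genes named on the mutant labels followed those labels. Atp4b, a subunit of the gastric proton pump, was at 4365 and 4786 CPM in the controls, 475 to 683 in ATP4B-DTR, 2136 to 3470 in GIF-DTR and 158 to 468 in GIF/ATP4B-DTR. Gif, which encodes intrinsic factor, was at 702 and 2303 CPM in the controls, 332 to 824 in ATP4B-DTR, 65.5 to 196 in GIF-DTR and 72.3 to 218 in GIF/ATP4B-DTR. Y-linked genes were high in some libraries and near 0 in others: the sum of 4 such genes was 2.50 to 4.92 CPM in all GIF-DTR libraries and in ATP4B-DTR 2 and 3, and 129 to 195 CPM in the other libraries. All control and GIF/ATP4B-DTR libraries were thus high. When GIF-DTR is compared with either of these groups, genotype coincides with Y-linked level, and those libraries alone cannot tell them apart. Control 2 and GIF-DTR 1 stood apart from their own groups in the contractile genes, and the tests of those genes are also given without them.

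The regulatory sequence most closely tied to these genes is the CArG box, the site bound by serum response factor, the transcription factor that works with myocardin in smooth muscle. The 250 bases before the RefSeq start were searched on both strands in RefSeq promoter sequence (GRCm38.p6), which held 7 of the 10 genes; Actg2, Myh11 and Tagln were not matched. That start is not always the end of the gene span printed below, which is from GENCODE: it lies 217 bases inside the span for Acta2, 44 for Myl9 and 39740 for Mylk, and at most 37 bases to either side for the other 4 genes. An exact CArG box was found in 1 of the 7 windows, against 1.47% of 32851 windows in all. Allowing 1 of the 6 central letters to be other than A or T, a match was found in 2 of the 7, Acta2 and Myl9, against 8.59% of all windows. The matches are shown because they are the only ones found in the 7 windows, and the windows of Cnn1, Des, Mylk, Lmod1 and Synpo2 held none; each is a description of the letters and not a measured site. Capitals mark the 10-letter match, each sequence is written 5′ to 3′ on the strand of the gene, and the first letter of the match lies 34 and 84 bases before the RefSeq start of Acta2 (minus strand, chr19:34255388-34255417 and chr19:34255438-34255467) and 161 and 99 bases before that of Myl9 (plus strand, chr2:156775293-156775322 and chr2:156775355-156775384). Both Acta2 sequences fall inside the first exon of the longer GENCODE model, and both Myl9 sequences lie before the GENCODE gene. The first Myl9 match is the exact one.
Acta2, 34 bases before the start: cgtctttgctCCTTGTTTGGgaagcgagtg
Acta2, 84 bases before the start: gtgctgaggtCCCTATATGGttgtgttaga
Myl9, 161 bases before the start: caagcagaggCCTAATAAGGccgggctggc
Myl9, 99 bases before the start: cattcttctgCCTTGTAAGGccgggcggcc

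All 10 genes were detected in every library, their levels moved together from library to library, and most of their variation lay inside the genotype groups. Their summed level was 455 CPM in control 1 against 2656 in control 2. ATP4B-DTR 1, 2 and 3 held 1042, 642 and 1475 CPM, GIF-DTR 1, 2 and 3 held 3114, 835 and 536, and GIF/ATP4B-DTR 1, 2 and 3 held 328, 792 and 709. The highest library was thus 9.49 times the lowest, and the 2 controls, which carry the same label, lay near opposite ends and differed 5.84-fold. As a share of all counts, the 10 genes took from 0.0340% in GIF/ATP4B-DTR 1 (95% Wilson interval 0.0333 to 0.0347, which covers counting error only) to 0.311% in GIF-DTR 1 (0.308 to 0.313). Counting error is therefore small beside the spread between libraries. By the sum, the order from high to low was GIF-DTR 1, control 2, ATP4B-DTR 3, ATP4B-DTR 1, GIF-DTR 2, GIF/ATP4B-DTR 2, GIF/ATP4B-DTR 3, ATP4B-DTR 2, GIF-DTR 3, control 1 and GIF/ATP4B-DTR 1. The same order was found with plain library totals, with RLE size factors and with TMM computed without the 50 most abundant genes.

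**Figure D1:**
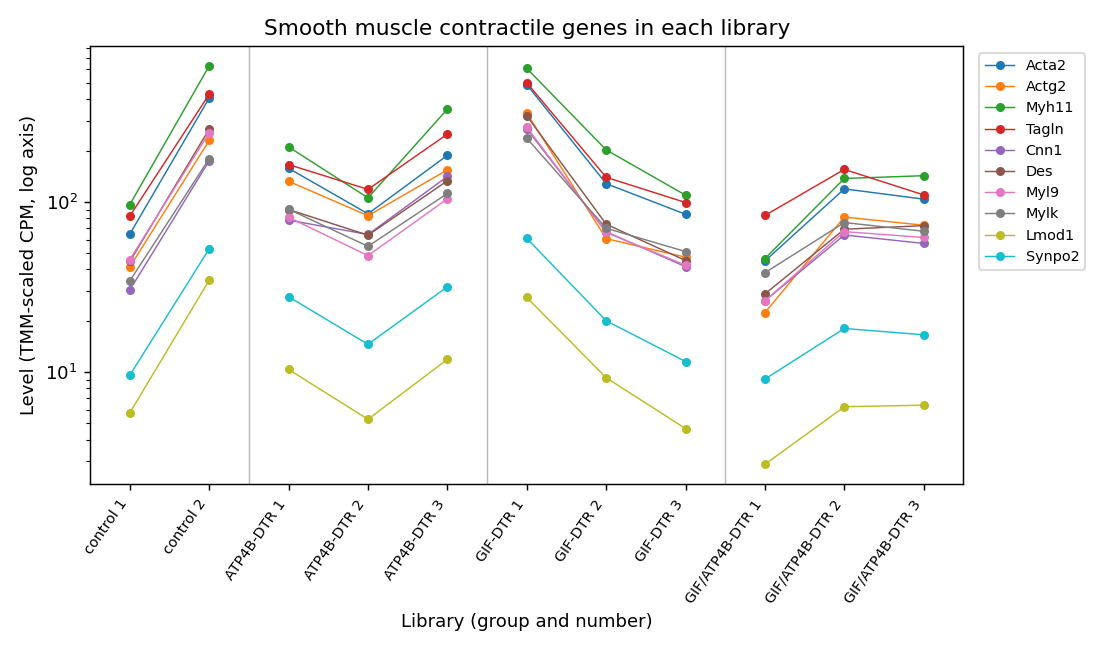
Level of each of the 10 contractile genes in TMM-scaled CPM (log axis) in each of the 11 libraries; each colour is a gene, and lines only link the libraries of a group, which have no order. All 10 genes are high in control 2 and GIF-DTR 1 and low in control 1, GIF-DTR 3 and GIF/ATP4B-DTR 1, so the lines run nearly parallel.

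The actins form the thin filament. Acta2 (chr19:34241090-34255590, minus strand), the actin of vascular and visceral smooth muscle, was at 64.5 and 407 CPM in the controls, 157, 85.0 and 187 in ATP4B-DTR 1 to 3, 488, 128 and 84.4 in GIF-DTR 1 to 3, and 44.9, 119 and 104 in GIF/ATP4B-DTR 1 to 3. GIF-DTR 1 and control 2 were the highest libraries and GIF/ATP4B-DTR 1 the lowest, and every group overlapped every other. Actg2 (chr6:83512905-83536265, minus strand), the actin typical of gut and other visceral muscle, was at 41.4 and 229 CPM in the controls, 132, 82.8 and 154 in ATP4B-DTR, 332, 60.7 and 47.2 in GIF-DTR, and 22.3, 81.3 and 72.8 in GIF/ATP4B-DTR. It had the widest range of the 10, with a highest level 14.9 times the lowest. Its lowest ATP4B-DTR library lay just above its highest GIF/ATP4B-DTR library, at 82.8 against 81.3 CPM.

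Myosin and its kinase drive the contraction. Myh11 (chr16:14194535-14291372, minus strand) encodes the smooth muscle myosin heavy chain, the motor itself, and had the highest CPM of the 10 in most libraries. It was at 96.2 and 629 CPM in the controls, 210, 105 and 350 in ATP4B-DTR, 608, 202 and 109 in GIF-DTR, and 46.4, 137 and 142 in GIF/ATP4B-DTR. Here control 2 was above GIF-DTR 1, and GIF/ATP4B-DTR 1 was again the lowest. Myl9 (chr2:156775420-156781658, plus strand), the regulatory light chain, was at 45.7 and 255 CPM in the controls, 81.1, 48.2 and 104 in ATP4B-DTR, 274, 66.0 and 42.4 in GIF-DTR, and 26.2, 66.8 and 61.7 in GIF/ATP4B-DTR. Mylk (chr16:34745210-35002420, plus strand), the light chain kinase, was at 34.3 and 179 CPM in the controls, 90.4, 54.7 and 112 in ATP4B-DTR, 236, 69.9 and 51.0 in GIF-DTR, and 38.3, 75.5 and 67.1 in GIF/ATP4B-DTR. Mylk had a narrower range than the other motor genes, 6.89-fold, and its lowest library was control 1.

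The proteins that bind and order the thin filament followed the same pattern. Tagln (chr9:45929619-45936058, minus strand), which encodes the actin-bundling protein transgelin, was at 82.4 and 428 CPM in the controls, 165, 118 and 250 in ATP4B-DTR, 500, 139 and 99.0 in GIF-DTR, and 83.1, 155 and 110 in GIF/ATP4B-DTR. Cnn1 (chr9:22099216-22109630, plus strand), calponin, an inhibitor of the myosin ATPase, was at 30.3 and 174 CPM in the controls, 78.0, 64.2 and 141 in ATP4B-DTR, 268, 66.6 and 41.5 in GIF-DTR, and 26.2, 63.8 and 56.9 in GIF/ATP4B-DTR. Tagln had the narrowest range of the 10 at 6.07-fold. For Cnn1 the ATP4B-DTR and GIF/ATP4B-DTR libraries narrowly failed to overlap, by 64.2 against 63.8 CPM. Lmod1 (chr1:135324807-135368065, plus strand), a leiomodin that nucleates actin filaments, was lower throughout, at 5.75 and 34.6 CPM in the controls, 10.3, 5.27 and 11.8 in ATP4B-DTR, 27.4, 9.24 and 4.64 in GIF-DTR, and 2.86, 6.24 and 6.38 in GIF/ATP4B-DTR. Synpo2 (chr3:123076519-123236149, minus strand), an actin-binding protein also called myopodin, was at 9.56 and 52.9 CPM in the controls, 27.7, 14.5 and 31.6 in ATP4B-DTR, 60.9, 19.98 and 11.5 in GIF-DTR, and 9.08, 18.0 and 16.5 in GIF/ATP4B-DTR. Lmod1 peaked in control 2 and Synpo2 in GIF-DTR 1, and both were lowest in GIF/ATP4B-DTR 1.

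Des (chr1:75360329-75368579, plus strand) encodes desmin, the muscle intermediate filament that ties the contractile units together. It was at 44.6 and 267 CPM in the controls, 90.0, 63.6 and 133 in ATP4B-DTR, 320, 73.8 and 45.2 in GIF-DTR, and 28.7, 69.0 and 72.4 in GIF/ATP4B-DTR. Across the 10 genes, the highest library was GIF-DTR 1 for 8 and control 2 for 2, Myh11 and Lmod1, and the lowest was GIF/ATP4B-DTR 1 for 8 and control 1 for 2, Tagln and Mylk. Per kilobase of exon, which allows genes to be compared, the mean level over the 11 libraries was 97.4 CPM per kb for Tagln, 83.8 for Myl9, 77.4 for Acta2 and 73.3 for Actg2. It was 33.6 for Cnn1, 31.5 for Myh11 and 29.2 for Des, and 8.14 for Mylk, 2.87 for Lmod1 and 1.89 for Synpo2. The long heavy chain gene Myh11 therefore ranked 6th per length although it led in CPM. Exons of Tagln overlap those of Pcsk7 and Gm48529, exons of Des those of Gm15179, and exons of Mylk those of E130310I04Rik and Gm21691, all on the other strand. Library preparation marked strand, per the labels, but whether the counting used it is not given in the sources used here, so reads of these genes cannot be told apart there.

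The spread inside groups was shared by all 10 genes. Control 2 was above control 1 by 5.19-fold (Tagln) to 6.54-fold (Myh11), with a median of 5.65. GIF-DTR 1 was above GIF-DTR 2 by 2.96- to 5.46-fold and above GIF-DTR 3 by 4.63- to 7.08-fold. ATP4B-DTR 3 was above ATP4B-DTR 2 by 1.86- to 3.32-fold, and GIF/ATP4B-DTR 2 was above GIF/ATP4B-DTR 1 by 1.86- to 3.64-fold. On the scale of log2(CPM + 0.5), the SD within groups was 0.97 (Mylk) to 1.21 (Actg2) for the 10 genes, with a median of 1.11, against a median of 0.24 over all tested genes. The differences inside groups made up 71.7% (Lmod1) to 89.4% (Mylk) of each gene's total sum of squares, with a median of 81.7%, against 47.7% for the median tested gene. A gene with no genotype difference would also be expected to have most of its sum of squares inside groups, because most degrees of freedom lie there. Between pairs of the 10 genes, Pearson's r over the 11 libraries was 0.92 to 0.99 with a median of 0.97, and the lowest pair was Lmod1 and Actg2. The points share their libraries and the genes were chosen as markers of the same cells, so the correlation is a description.

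Dividing by Acta2 removes most of that shared movement and leaves small differences between the genes. The ratio of Des to Acta2 ranged only 1.40-fold over all 11 libraries, from 0.535 to 0.748, and that of Myl9 1.41-fold. The ratio of Actg2 to Acta2 ranged most widely, 2.05-fold. It was 0.839, 0.97 and 0.821 in ATP4B-DTR 1, 2 and 3, above all other libraries, which lay between 0.475 (GIF-DTR 2) and 0.703 (GIF/ATP4B-DTR 3). Lmod1 to Acta2 was 0.0891 and 0.0850 in the controls, above the 9 mutant libraries, and Myl9 to Acta2 was 0.708 and 0.625 in the controls, also above all others. Cnn1 to Acta2 was 0.470 and 0.427 in the controls, below all others. These ratios were singled out after their values were seen, all share Acta2 as the denominator, and were not tested. Tagln, Mylk and Synpo2 were highest relative to Acta2 in GIF/ATP4B-DTR 1, the library with the least of the 10 genes, at 1.85, 0.853 and 0.202.

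**Figure D2:**
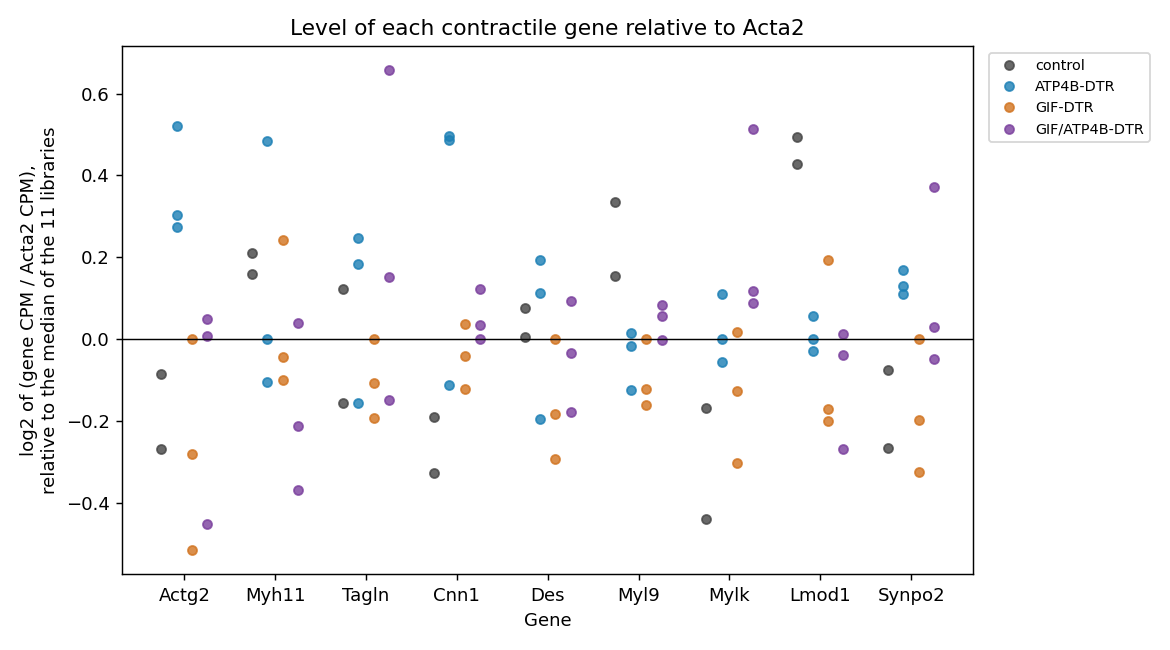
Ratio of each gene's CPM to that of Acta2 in the same library, as log2 relative to the median of the 11 libraries; each point is a library, coloured by group. Points of Actg2 in ATP4B-DTR lie above all others, those of Lmod1 and Myl9 in the controls lie above all others, and the Des ratios span only 1.40-fold.

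None of the 10 genes differed between genotypes by edgeR's quasi-likelihood test with Benjamini-Hochberg adjustment over all tested genes, at an adjusted p under 0.05, in any of the 6 comparisons. None had an unadjusted p under 0.05 either. DESeq2 also called 0 of 10 in each, with 1 gene at an unadjusted p under 0.05 in GIF/ATP4B-DTR against control and 0 in the other comparisons. The estimates were wide: SEs ran from 0.71 to 0.99 on the log2 scale, against medians over all tested genes of 0.21 to 0.23. All comparisons with the controls share the same 2 control libraries, and the comparisons between mutant groups share libraries with them too.

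In ATP4B-DTR against control, 0 of the 10 genes were called, where 21.6% of all tested genes were (1813 higher and 1398 lower). All 10 estimates were negative, from -1.14 (Lmod1) to -0.11 (Cnn1), with a median of -0.61 against -0.01 for all genes, and the 95% intervals together reached from -3.08 to 2.10. In GIF-DTR against control, 0 of 10 were called where 16.8% of all genes were, and the estimates lay on both sides of 0, from -0.55 to 0.30 with a median of -0.04. Those intervals still reached from -2.50 to 2.39, so differences of that size either way could not be told from none. Both medians rest on single libraries. Without control 2 they were 1.17 and 1.69, without control 1 the ATP4B-DTR median was -1.37, and without GIF-DTR 1 the GIF-DTR median was -1.19.

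The single lowest estimate, that of Lmod1, was in GIF/ATP4B-DTR against control, where 0 of 10 genes were called and 33.6% of all tested genes were (2713 higher and 2292 lower). The median of the 10 was -1.30, against -0.04 for all genes. Lmod1 came closest at -1.96 ± 0.87 (SE), with a 95% interval of -3.93 to 0.01 and an adjusted p of 0.114. Myh11 followed at -1.74 ± 0.94 (adjusted p = 0.188) and Myl9 at -1.54 ± 0.90 (adjusted p = 0.220). The other estimates were -1.46 for Des, -1.40 for Acta2, -1.20 for Actg2, -1.14 for Tagln, -1.10 for Synpo2, -1.06 for Cnn1 and -0.82 for Mylk, with adjusted p from 0.256 to 0.450. The lower values of this group were set against 2 controls that themselves differed more than 5-fold. Without control 1, Lmod1 was called, at -2.74 with an adjusted p of 0.0335, and the median was -2.07. Without control 2, 9 of the 10 estimates turned positive, Lmod1 was at -0.16 with an adjusted p of 0.926, and the median was 0.48.

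Among the mutant groups, 0 of 10 genes were called in GIF-DTR against ATP4B-DTR, where 0.49% of all genes were, and the median was 0.47. Without GIF-DTR 1 that median was -0.55. When GIF/ATP4B-DTR was set against ATP4B-DTR, 0 of 10 were called, as were 0% of all genes, by edgeR, with 1554 genes at an unadjusted p under 0.05 and 277 genes called by DESeq2. The median was -0.76, and it stayed between -1.002 and -0.47 with each library left out in turn. The libraries of these groups did not overlap, by a narrow margin, for Actg2 (-1.06 ± 0.89, adjusted p = 0.716) and Cnn1 (-0.95 ± 0.82, adjusted p = 0.730). The share of all tested genes without overlap was not computed, so nothing is read from this. In GIF/ATP4B-DTR against GIF-DTR, 0 of 10 were called where 2.53% of all genes were, and the median was -1.34, from -1.50 (Myh11) to -0.98 (Mylk). Without GIF-DTR 1 it was -0.09.

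**Figure D3:**
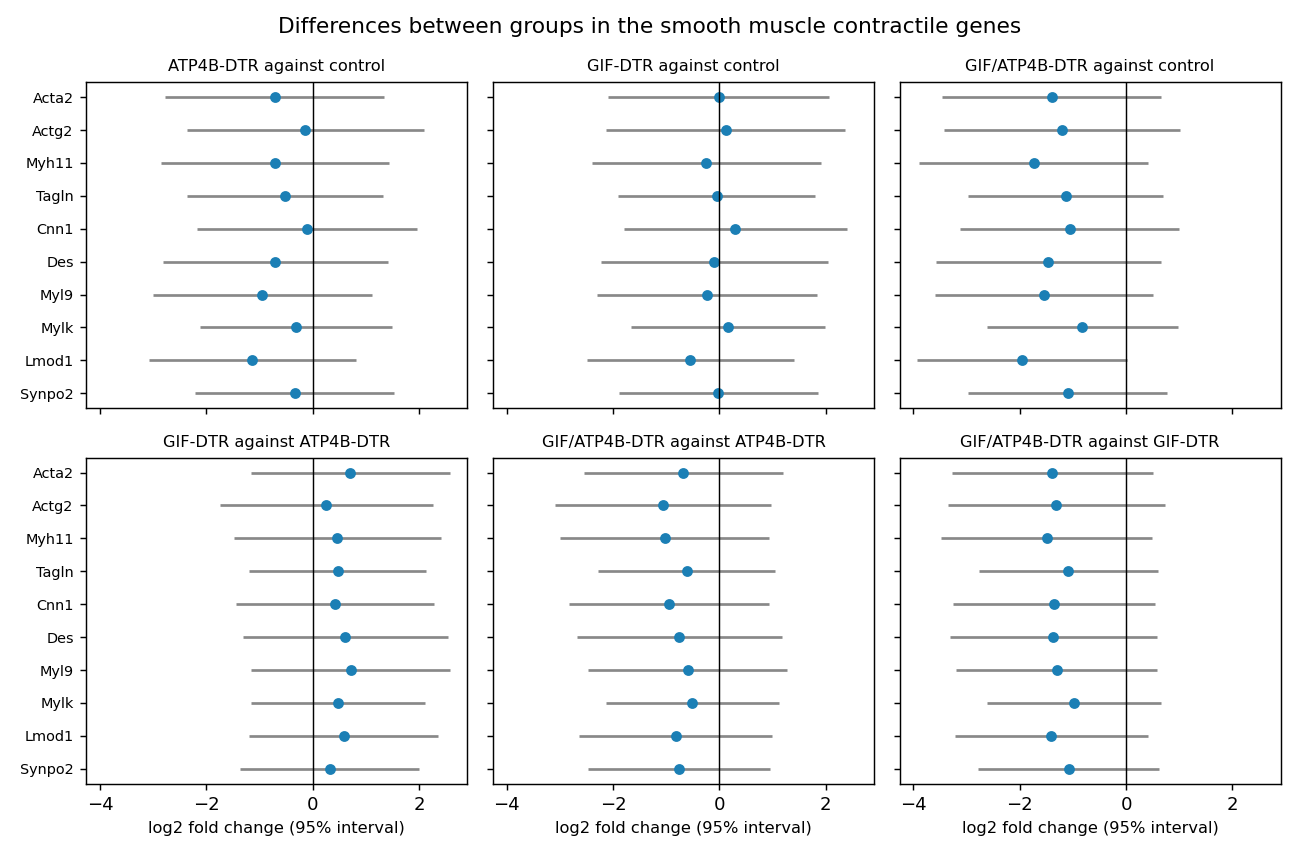
Log2 fold change of each of the 10 genes in the 6 comparisons, from edgeR; points are estimates and bars are 95% intervals. Every bar crosses 0, and Lmod1 in GIF/ATP4B-DTR against control comes nearest to leaving it, with an interval of -3.93 to 0.01.

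Other parts of the contractile machinery divided into genes that moved with the 10 and genes that did not. Likeness here is Pearson's r over the 11 libraries between a gene's log2(CPM + 0.5) and an index, the mean of the z-scores of the 10 genes. Of 14 tested partners of the actin filament, 5 had r over 0.9: Smtn, Cald1, Tpm2, Pdlim3 and Hspb6. Of 17 tested genes of excitation and calcium handling 7 did, among them Kcnma1, Cacna1c, Pln, Jph2 and the muscarinic receptor gene Chrm2, and of 18 genes of the dense plaque and dystrophin complex 5 did, among them Flna, Synm and Pgm5. Of 11 regulators of myosin phosphatase and kinase 3 did, Ppp1r12b, Ppp1r12c and Mrvi1, although the median r of that list was -0.19. Of 9 tested transcription regulators 3 did: Myocd, which encodes myocardin, Foxf1 and Barx1. Most abundant in their lists but not alike were Tpm1 (r = 0.38), Atp2a2 (r = -0.29), Fhl1 (r = -0.26) and Gata6 (r = -0.02), genes that other cells also express. The non-muscle paralogs of the 10, such as Actg1 (r = 0.15) and Myl6 (r = -0.31), held none with r over 0.9.

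Some genes of these lists were called between genotypes, at shares that are read against all genes: 15.4% of all tested genes were called lower in GIF/ATP4B-DTR against control. Of the 14 actin filament partners 1 was called lower in GIF/ATP4B-DTR against control, Tns1, a tensin that links actin to adhesions. It was at 211 and 283 CPM in the controls, 55.7 to 67.8 in ATP4B-DTR, 66.7 to 160 in GIF-DTR and 22.9 to 36.2 in GIF/ATP4B-DTR. Its log2 fold change was -3.003 ± 0.35 in GIF/ATP4B-DTR against control (adjusted p = 0.00022), and it did not follow the 10 genes closely (r = 0.58). Of the 17 genes of excitation and calcium handling 4 were called lower there: Chrm3, a muscarinic receptor, fell by 1.61 (adjusted p = 0.000218), Itpr1, a calcium release channel, fell by 1.07 (adjusted p = 0.00804), Ptgfr, a prostaglandin receptor, fell by 2.77 (adjusted p = 0.00982) and Cacna1h, a T-type calcium channel, fell by 2.23 (adjusted p = 0.0175). Of the 18 genes of the dense plaque and dystrophin complex 5 were called lower, among them Dtna, which fell by 1.64 (adjusted p = 0.000107), and Tln1 and Vcl, which anchor actin to the membrane. Chrm3 was at 23.4 and 21.5 CPM in the 2 controls and Vcl at 152 and 153, nearly equal in the 2 libraries in which the 10 contractile genes differed more than 5-fold. Other called genes were higher in control 2: Cacna1h was at 2.87 CPM in control 1 and 11.8 in control 2, Itpr1 at 15.6 and 27.2, Fermt2, a kindlin, at 11.3 and 37.9, and Mef2c at 0.674 and 5.65. Of 9 tested transcription regulators 1, Mef2c, was called lower, at -2.24 (adjusted p = 0.0412). These list shares lay on both sides of the share of all genes.

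Markers of other stromal cells were also highest in control 2 and GIF-DTR 1. The summed level of 8 pericyte markers was 23.9 CPM in control 1 and 194 in control 2. It was 146, 52.7 and 61.5 CPM in GIF-DTR 1, 2 and 3, from 27.0 to 55.5 in ATP4B-DTR and from 29.0 to 53.1 in GIF/ATP4B-DTR. For 13 fibroblast markers the sum was 149 and 790 CPM in the controls, 208 to 433 in ATP4B-DTR, 305 to 958 in GIF-DTR and 143 to 368 in GIF/ATP4B-DTR. For 10 endothelial markers it was 23.8 and 132 CPM in the controls, 18.0 to 41.8 in ATP4B-DTR, 41.0 to 98.2 in GIF-DTR and 12.5 to 31.7 in GIF/ATP4B-DTR. Every fibroblast and every endothelial marker was higher in control 2 than in control 1, as were all 7 tested pericyte markers. Their median r with the index was 0.90 for pericytes, 0.77 for fibroblasts and 0.81 for endothelium. Their part in the spread of the contractile genes was not tested.

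Some other lists shared the pattern in part. The sum of 12 enteric neuron markers was also highest in control 2 (70.8 CPM, against 35.8 in control 1) and next in GIF-DTR 1 (54.2 CPM), with a median r of 0.75. That of 7 chief cell markers was 2.09 times as high in control 2 as in control 1 and 4.20 times as high in GIF-DTR 1 as in the mean of GIF-DTR 2 and 3, with a median r of 0.41. The lists that follow did not peak in these 2 libraries. The sum of 12 macrophage and monocyte markers was 19.7 and 95.2 CPM in the controls but 132, 173 and 210 CPM in GIF-DTR 1, 2 and 3, so that GIF-DTR 1 was the lowest of its group (median r with the index 0.38). The 7 markers of glandular epithelium summed to 11206 CPM in control 1 and 7536 in control 2, and their median r was -0.31. The 9 parietal cell markers summed to 18449 and 17191 CPM in the controls, a ratio of 0.932, and 12 proliferation genes were lower in control 2 than in control 1. Of 16 striated muscle genes, Myh1, Myh2, Myh4, Tnnc2, Mb and Ttn averaged under 0.2 CPM, and the whole list summed to only 18.4 to 30.3 CPM, with no excess in control 2 or GIF-DTR 1.

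**Figure D4:**
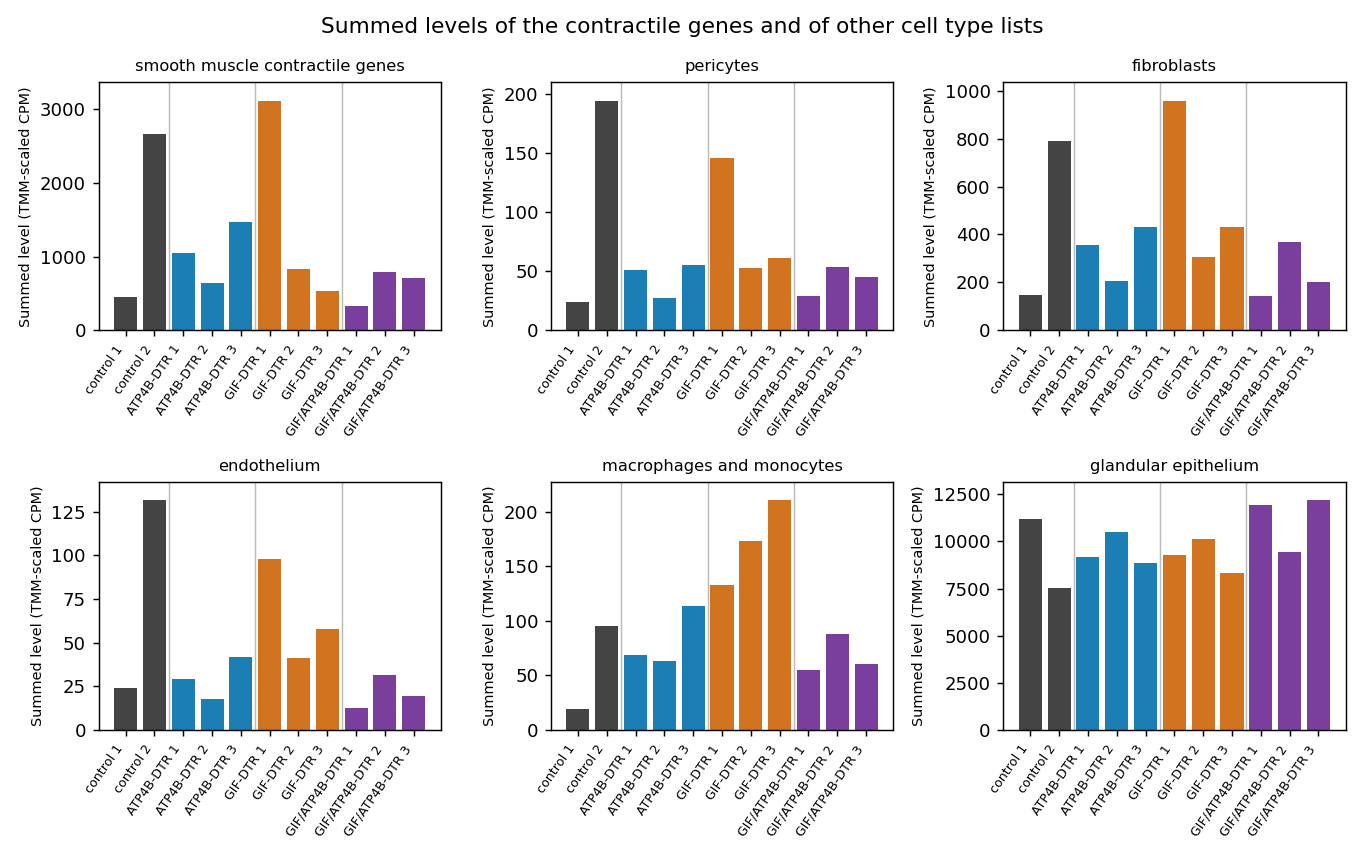
Summed TMM-scaled CPM of the 10 contractile genes and of 5 lists of cell type markers in each of the 11 libraries, with bars coloured by group. Pericyte, fibroblast and endothelial markers peak in the same 2 libraries as the contractile genes (control 2 and GIF-DTR 1), while macrophage markers are high in all 3 GIF-DTR libraries and glandular epithelium is lowest in control 2.

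Outside the muscle lists, the 10 genes most alike to the index, among 10013 genes that could be chosen, were Flnc, Sparcl1, Atp2b4, Dmpk, Tgfb1i1, Selenom, Dnajb5, Hand2, Ccdc3 and Mcam, with r from 0.98 to 0.96 over 11 libraries. Flnc, filamin C of muscle, was at 2.34 CPM in control 1 against 20.01 in control 2, and at 21.8 CPM in GIF-DTR 1 against 6.45 and 4.13 in GIF-DTR 2 and 3. Sparcl1, a secreted matrix protein, was at 16.7 CPM in control 1 against 142 in control 2, and at 128 CPM in GIF-DTR 1 against 30.7 and 25.4 in GIF-DTR 2 and 3. Both repeated the jump between the 2 controls. Of all 14889 tested genes, 221 had r over 0.9, the 10 contractile genes among them, and 5 had r under -0.9.

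To see how far the contractile level moves other group differences, the index was added as a term to the edgeR fit of the 14879 other genes. It ran from -1.40 in GIF/ATP4B-DTR 1 to 1.76 in GIF-DTR 1, and it is built from the same libraries. It takes 1 of the 7 residual degrees of freedom. The difference in mean index between groups was -0.15 for ATP4B-DTR against control, 0.01 for GIF-DTR against control and -0.92 for GIF/ATP4B-DTR against control. With genotype in the fit, 563 genes (3.78%) had a slope on the index at an adjusted p under 0.05, 547 of them higher where the index was higher and 16 lower.

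The count of genotype calls with the term has to be read with the difference in index. Where the groups had nearly the same mean index, as in ATP4B-DTR and in GIF-DTR against control, the term moved the typical gene little: the median absolute change over the other genes was 0.0077 and 0.0085 on the log2 scale, against 0.0755 in GIF/ATP4B-DTR against control. The share of calls kept in those comparisons therefore says little about the contractile level, and genes that follow the index moved more, as the stromal lists below show. In ATP4B-DTR against control, 3211 other genes were called without it and 3530 (23.7%) with it, and 3173 were called in both, all in the same direction. In GIF-DTR against control the counts were 2500 and 2827 (19%), with 2461 in both. In GIF/ATP4B-DTR against control they were 5005 and 4829 (32.5%), with 4502 in both, so that 89.95% of the genes called without the term were also called with it. The corresponding counts were 73 and 103 (0.692%) in GIF-DTR against ATP4B-DTR, with 72 in both. In GIF/ATP4B-DTR against ATP4B-DTR edgeR called 0 genes either way (0%), with 1554 and 1599 genes at an unadjusted p under 0.05. The overlap was smallest in GIF/ATP4B-DTR against GIF-DTR, with 376 genes called without the term, 271 (1.82%) with it and 255 in both, or 67.8% of the first count. Those 2 groups also had the largest difference in mean index, -0.93. Their Y-linked sums differed in every library, at 174 to 195 CPM in GIF/ATP4B-DTR and 2.50 to 4.07 in GIF-DTR. Leaving out control 2 lowered the counts of calls in the 3 comparisons with the controls, by more than the index term moved them. That fit keeps only 1 control, so the loss of a sample and the content of control 2 cannot be told apart there.

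**Figure D5:**
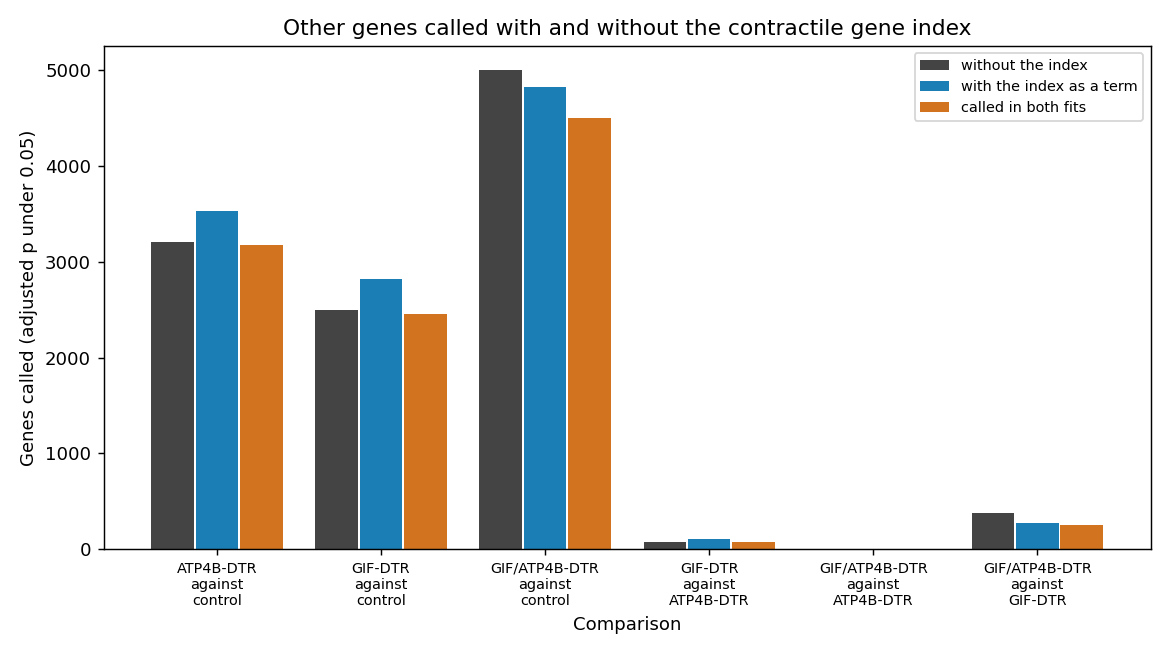
Number of genes other than the 10 called by edgeR in each of the 6 comparisons without the index (dark grey), with it as a term (blue) and in both fits (orange). The bars for both fits nearly reach the dark grey bars in the comparisons of the single lines with the controls (3173 of 3211 and 2461 of 2500) and, as a share, fall shortest of them in GIF/ATP4B-DTR against GIF-DTR (255 of 376).

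The stromal lists moved with the term by more than the typical gene. In GIF/ATP4B-DTR against control their differences shrank: the median log2 fold change of the 7 tested pericyte genes went from -2.05 to -0.40 and that of the 10 endothelial genes from -2.06 to -0.65. That of the 13 fibroblast genes went from -1.11 to 0.26. The starting values rest on control 2: without that library, and without the term, the 3 medians were 0.37 for pericytes, 0.07 for endothelium and 1.30 for fibroblasts. In ATP4B-DTR against control the medians also shrank, from -1.60 to -0.81 for pericytes, from -1.54 to -0.72 for endothelium and from -0.68 to -0.11 for fibroblasts. In GIF-DTR against control the pericyte median went from -0.65 to -0.28 and the endothelial one from -0.24 to 0.18. These starting values rest on control 2 as well: without it the pericyte, endothelial and fibroblast medians were 0.57, 1.02 and 1.73 in ATP4B-DTR against control and 1.40, 1.90 and 2.86 in GIF-DTR against control. Without GIF-DTR 1 the fibroblast median in GIF-DTR against control was -0.44. Not every difference shrank. The fibroblast median in GIF-DTR against control went from 0.52 to 0.69, and the pericyte median went from -0.29 to 0.65 when GIF/ATP4B-DTR was set against ATP4B-DTR, where it was 0.16 without ATP4B-DTR 3 and without the term. Although the medians shrank in ATP4B-DTR against control, 3 of the 7 pericyte genes and 1 of the 10 endothelial genes were called lower with the term that edgeR had not called without it. Among all 14879 other genes in that comparison, 1398 were called lower without the term and 1592 with it. Of the endothelial genes in GIF/ATP4B-DTR against control, 2 were called lower without the term and 1, Plvap, a diaphragm protein of fenestrated vessels, with it (-2.80 against -2.06). Of all 14879 other genes, 2292 were called lower there without the term and 2300 with it. Kdr, a receptor for vascular endothelial growth factor, was at -3.16 (adjusted p = 0.0269) without it and at -1.67 (adjusted p = 0.0837) with it. Because these lists follow the contractile genes from library to library, muscle and the rest of the stroma cannot be told apart by this fit. The proliferation list hardly moved. Its 12 proliferation genes were called higher in each mutant group against control in both fits, with a median of 1.81 without the term and 1.70 with it in GIF/ATP4B-DTR. Tns1 stayed at -2.70 (adjusted p = 1.08e-05), Chrm3 at -1.61 and Dtna at -1.56. Ptgfr was at -2.85 (adjusted p = 0.0169), Itpr1 at -0.82 (adjusted p = 0.0164) and Cacna1h at -1.25 (adjusted p = 0.0237), all still called. Mef2c was at -1.08 and no longer called (adjusted p = 0.184). In GIF-DTR against control, the median of the macrophage and monocyte list was 1.36 without the term, with 2 of 12 genes called higher, and 1.64 with it, with 5 called higher. Of all 14879 other genes in that comparison, 1485 were called higher without the term and 1642 with it. In GIF/ATP4B-DTR against control the macrophage and monocyte median went from -0.20 to 0.69. Without control 2, and without the term, these medians were 3.37 and 1.82.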

How the data were processed

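Stranded mRNA libraries of gastric corpus mucosa were made, per the labels. The authors deposited 1 table of estimated counts per Ensembl gene in 11 samples (30.7% of the nonzero values are not whole); the build was mm10, per the submitters' processing notes, and the aligner and quantifier are not given in the sources used here. Symbols were matched on unversioned Ensembl IDs (34582 of 34866), and 12307 genes were 0 in every library. Counts were rounded and tested with edgeR 4.0.16 (limma 3.58.1, R 4.3.3): TMM scaling, filterByExpr, robust quasi-likelihood fit of 4 groups over 11 samples, Benjamini-Hochberg adjustment. Intervals are 95%. The code was tested on simulated data. DESeq2 1.42.0, other scalings and filters, a term for Y-linked genes, only the groups compared and each library left out were alternatives. Replicates of a group differed by more than sampling noise (chi-square per degree of freedom 38.9 to 149). The contractile genes, the 23 other lists and the tests were chosen with earlier results of these data known. Besides the 10 genes, the text names genes of a list that passed the test (at most the 4 smallest p per list), the most abundant of a list, genes of a list with r over 0.9, which were added to the naming after their values were seen, as were the striated genes near 0, Fermt2 and Ckm, and the 10 genes most alike to the index with a mean of at least 5 CPM. Exon lengths and overlaps are from GENCODE (GRCm38). For 1 of the called genes of the lists, the result is not reported here.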

Additional observations from a re-analysis of the deposited data

How the results depend on the processing

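No paired analysis was possible because the labels give the mutant samples no shared replicate numbers; those used here follow accession order. The highest library was 9.49 times the lowest in summed contractile genes, and 9.14 times with plain totals, 9.68 with RLE size factors and 9.75 with TMM without the 50 most abundant genes. No contractile gene was called under any alternative except 1, Lmod1, in GIF/ATP4B-DTR against control without control 1 (0 to 1 with libraries left out). Of 190 recomputed fold changes in each comparison, the direction turned in 22 (ATP4B-DTR against control), 34 (GIF-DTR against control), 18 (GIF/ATP4B-DTR against control), 20 (GIF-DTR against ATP4B-DTR), 0 (GIF/ATP4B-DTR against ATP4B-DTR) and then 2 (GIF/ATP4B-DTR against GIF-DTR). For GIF/ATP4B-DTR against control, the log2 fold changes with 1 library left out ran from -2.19 to 0.46 for Acta2, -1.96 to 0.50 for Actg2, -2.53 to 0.17 for Myh11, -1.88 to 0.49 for Tagln, -1.83 to 0.69 for Cnn1, -2.23 to 0.34 for Des, -2.30 to 0.17 for Myl9, -1.57 to 0.81 for Mylk, -2.74 to -0.16 for Lmod1 and -1.86 to 0.60 for Synpo2; without control 1 gave the lowest and without control 2 the highest of each.

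Calls among other genes ranged, with 1 library left out, from 1315 (without control 2) to 3329 in ATP4B-DTR against control, 871 (without control 2) to 2629 in GIF-DTR against control and 2874 (without control 2) to 5042 in GIF/ATP4B-DTR against control. They ranged from 17 (without ATP4B-DTR 1) to 140 (without ATP4B-DTR 3) in GIF-DTR against ATP4B-DTR, from 0 to 43 (without GIF/ATP4B-DTR 2) when GIF/ATP4B-DTR was set against ATP4B-DTR, and from 160 (without GIF/ATP4B-DTR 3) to 393 in GIF/ATP4B-DTR against GIF-DTR. With control 2 and GIF-DTR 1 both left out, an alternative chosen after seeing the data, 0 contractile genes were called in any comparison and 1290, 738, 2826, 24, 1 and 178 other genes were, in the order above; fewer samples enter that fit. A control left out leaves 1, assumed to vary like the other groups. The 2 controls limit every comparison with them.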

Other observations

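Actn2, an actinin of striated muscle, was at 0.314 and 0.277 CPM in the controls, 0.931 to 1.70 in ATP4B-DTR, 1.94 to 3.57 in GIF-DTR and 1.60 to 2.69 in GIF/ATP4B-DTR. It rose by edgeR's test in all 3 mutant groups against control, by 2.12 ± 0.51 (adjusted p = 0.0132), 3.22 ± 0.52 (adjusted p = 0.00309) and 2.79 ± 0.51 (adjusted p = 0.00183) on the log2 scale, at a level of a few CPM at most. Its r with the contractile index was -0.22, while Ckm, muscle creatine kinase, of the same list had an r of 0.96.

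Kit, a receptor of interstitial cells of Cajal and of mast cells, was at 82.1 and 89.1 CPM in the controls, 8.998 to 14.9 in ATP4B-DTR, 22.4 to 33.5 in GIF-DTR and 5.49 to 8.23 in GIF/ATP4B-DTR. It fell in each, by 2.84 ± 0.23 (adjusted p = 7.37e-05), 1.64 ± 0.23 (adjusted p = 0.00174) and 3.66 ± 0.24 (adjusted p = 8.72e-06) on the log2 scale, and with the contractile index as a term it was at -2.83, -1.65 and -3.58. Ano1, another marker of interstitial cells of Cajal and the most abundant of the 5 listed, was at 75.2 and 59.4 CPM in the controls and 55.2 to 119 CPM in the mutant libraries. Of the 4 tested genes of this list 2 were called lower in GIF/ATP4B-DTR against control, Kit and Etv1, where 15.4% of all tested genes were. Etv1, which had an r of 0.86 with the index against 0.37 for Kit, was at -1.71 ± 0.55 (adjusted p = 0.0312) and, with the index as a term, at -0.87 and no longer called (adjusted p = 0.0565). Ano1 is also expressed in epithelium, and the source of either signal was not tested.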
